A study of Mus musculus with 6 samples.

Results

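The 18S ribosomal RNA (rRNA) of the small ribosomal subunit carries ribose methylations along its whole length, and the 18 sites described here lie in its last part, above position 650 of human 18S rRNA. They were chosen by position alone, from the deposited list of methylated rRNA sites, of which 40 are in 18S rRNA and 66 in 28S rRNA of the large subunit. The other 22 sites of 18S rRNA lie at or below position 650. Sites are named by the subunit, the methylated base and its position in human 18S rRNA, and at each of the 18 sites the mouse position is 2 higher (SSU-U1804 is position 1806 of mouse 18S rRNA).

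Methylation was measured by RiboMeth-seq in whole brains of 3 adult mice lacking Snord115 and of 3 E16.5 embryos (E16.5 counts days of gestation) lacking both Snord115 and Snord116. Snord115 knockout (KO) mice were heterozygotes that inherited a CRISPR-Cas9 deletion of the gene array from the father, whose allele is the one expressed at this imprinted locus. How the deletion of Snord115 and Snord116 together was made and inherited was not given in the sources used here, and a legend of the study calls these brains adult where the labels and the deposited list give E16.5. The adult age in weeks was not given in the sources used here. Age and genotype changed together between the KO groups, so their parts in any difference between these groups cannot be told apart. Wild-type (WT) values exist here only as means and SDs in the deposited site list. The list takes them from another dataset of adult and E16.5 brain. The study calls the WT animals littermates and states that their data also appeared in an earlier report. KO was not tested against WT here. The study made that comparison and found comparable patterns in the adult. It reports slight changes at a few rRNA sites, none of them among the sites chosen here, and no effect on those few at E16.5. It concludes that neither snoRNA has a prominent part in rRNA ribose methylation.

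In RiboMeth-seq, RNA is cut by alkali and the ends of the fragments are counted at each position. A 2′-O-methyl group protects the bond that follows it, so that few read ends fall there. The methylated fraction is 1 minus the ratio of observed to expected read ends, where the expected number is a weighted mean of the 6 positions on either side. It runs from 0 (no protection) to 1 (every molecule methylated). Each brain gave between 9621368 and 20064865 read ends over all rRNA positions. Over the 18 sites the expected number of read ends had a median of 1652 to 3284 per brain, and its lowest value was 392, at SSU-C1703 of E16.5 brain 1.

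Ribose methylation of rRNA is laid down in the nucleolus by fibrillarin, which is steered to each site by a box C/D small nucleolar RNA (snoRNA). The snoRNA pairs with the rRNA, and the rRNA base facing the fifth snoRNA base upstream of a D or D′ box is methylated. Most of these snoRNAs are cut from introns of other genes, often genes of ribosomal proteins or of nucleolar proteins. Snord115 and Snord116 are brain-expressed box C/D snoRNAs of the imprinted Prader-Willi region with no known rRNA target. The profiling addressed whether their loss changes methylation of rRNA in the brain.

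The part of 18S rRNA covered here comprises the central domain, which forms the platform of the small subunit, the 3′ major domain, which forms its head, and the 3′ minor domain, which holds the decoding centre. In human numbering, 6 of the sites lie between 650 and 1200, 10 between 1200 and 1700 and 2 above 1700. The mouse 18S sequences around the sites on which the results turn, as deposited, are written 5′ to 3′ with the methylated base in capitals. The first 6 are the 4 sites that passed the test between the KO groups and, in both groups, the 2 least methylated sites. The other 4 are sites followed by C, at which brain 1 of each group stood below the rest.

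SSU-U799: gcccgaagcgUuuacuuugaa
SSU-G867: uaggaauaauGgaauaggacc
SSU-C1272: cucacccggcCcggacacgga
SSU-U1288: acggacaggaUugacagauug
SSU-G1447: caacuucuuaGagggacaagu
SSU-U1804: cggucgaacuUgacuaucuag
SSU-A1031: uuaaucaagaAcgaaagucgg
SSU-A1383: ccgauaacgaAcgagacucug
SSU-U1442: ucccccaacuUcuuagaggga
SSU-C1703: guacacaccgCccgucgcuac

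The snoRNAs annotated in the mouse genome (GENCODE release 21 for mouse, build mm10) were searched for guides to the 18 sites. A guide had to hold the D box motif CTGA with the site facing the fifth base before it, and at least 9 uninterrupted pairs through the site. G-U pairs were allowed, but Watson-Crick pairs had to exceed them by 8 or more. Such a stretch was found for 16 of the 18 sites. For SSU-C1703 a stretch was found only with 1 mismatch in the box (CAGA) and at least 10 pairs, and for SSU-C797 none was found. Of all 1871 positions of mouse 18S rRNA, 4.17% had a stretch by the rule without mismatch and 10.4% by either rule.

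The pairing parts of the snoRNAs that face the sites above are given as DNA, 5′ to 3′, with the box in capitals, so that the base facing the site is the fifth before the capitals.

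Gm24067 for SSU-U799: ttcaaagtaaacgctCTGA
Snord98 for SSU-G867: tcctattccattgCTGA
Snord66 for SSU-C1272: cgtgtctgggccaCTGA
Snord110 for SSU-U1288: atctgtcaatcccCTGA
Gm25970 for SSU-G1447: gtccctctaaaCTGA
Gm24148 for SSU-U1804: ttcctctagatagtcaagttCTGA
Snord59a for SSU-A1031: tgactttcgttcttCTGA
Gm22680 for SSU-A1383: tctcgttcggCTGA
Snord61 for SSU-U1442: tcctctaagaagttCTGA
Snord43 for SSU-C1703: tgacgggcggaCAGA

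The pairing was longest at SSU-U1804, where Gm24148 formed 20 pairs without a G-U pair, and at SSU-A1031, where the Mir677 locus formed 20 pairs, 3 of them G-U. It was shortest at SSU-A1383, with 9 pairs to Gm22680, which RefSeq lists as SNORD30. The stretch of Snord66 facing SSU-C1272, the least methylated site, formed 12 pairs, 1 of them G-U.

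All 21 guides found lie inside a host gene on their own strand. Gm24148 (chromosome 1, 86352008 to 86352087, minus strand) and Snord82 (86356261 to 86356330), which face SSU-U1804 and SSU-A1678, lie in Ncl, the gene of nucleolin. Snord110 (chromosome 2, 130275506 to 130275573, plus strand) lies in Nop56, which encodes a core protein of box C/D snoRNA particles. Snord33 and Snord32a, which face the neighbouring sites SSU-U1326 and SSU-G1328, both lie in the ribosomal protein gene Rpl13a on chromosome 7. Gm22680, Gm24453 and Gm25855, which face SSU-A1383, SSU-C1391 and SSU-G1490, lie within Snhg1, a snoRNA host gene on chromosome 19. None of the 21 was a copy of Snord115 or Snord116. By overlap with the RefSeq snoRNAs of these names, the search held 131 copies of Snord115 on chromosome 7 between 59347681 and 59619095, and 69 of Snord116 between 59673461 and 59904848. Elsewhere in mouse 18S rRNA, a stretch of 10 pairs was found in 4 Snord115 copies at position 159, a listed site outside the 18. Stretches in Snord116 copies faced positions 433 and 463, in 1 and 69 copies, and neither is a listed site.

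Methylation was high at nearly all of these sites in both groups. The mean fraction over the 3 brains was at least 0.75 at 17 of 18 sites in the adult and at 17 of 18 at E16.5. SSU-C1272 was the exception in both. At a threshold of 0.90 the counts were 16 in the adult and 10 at E16.5. Over the 18 sites the median was 0.954 for the adult and 0.921 for E16.5, beside 0.963 and 0.928 over all listed sites and 0.964 and 0.919 over the 22 other sites of 18S rRNA. These medians depended on single brains and on the kind of read end: without brain 1 they were 0.977 in the adult and 0.942 at E16.5.

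SSU-C1272 lies in the head of the small subunit and faces Snord66, which is encoded in the translation factor gene Eif4g1. It had fractions of 0.438, 0.596 and 0.480 in adult brains 1, 2 and 3. At E16.5 the fractions were 0.351, 0.587 and 0.397. The groups overlapped, and brain 2 was the highest in each. The means were 0.505 ± 0.0816 in the adult and 0.445 ± 0.125 at E16.5 (SD, n = 3). Scored on 5′ read ends only, they were 0.512 ± 0.0894 and 0.471 ± 0.0612. The share of molecules without the methyl group did not pass the test between groups (edgeR quasi-likelihood test with Benjamini-Hochberg adjustment over all listed sites, adjusted p = 0.738). The WT means in the deposited list were 0.464 in the adult and 0.461 at E16.5, with SDs of 0.0493 and 0.123. The KO SDs in that list, 0.0667 and 0.102, divide by the number of brains and are smaller than the sample SDs above.

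The dip in read ends at this site was shallow in each brain. In adult brain 2, 972 read ends fell on the position before SSU-C1272, 449 on the site and 1417 on the position after it. In E16.5 brain 2 the numbers were 1237, 491 and 1510. At SSU-U1804 the same 3 positions had 2512, 18 and 1970 read ends in adult brain 2 and 1610, 103 and 1297 in E16.5 brain 2. Relative to its neighbours, SSU-U1804 had more read ends in that embryo than in that adult brain. At SSU-C1272 the dip was of like depth in the same brains, which had the highest fraction of their groups there.

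Between the KO groups, 4 of the 18 sites passed the test, SSU-U799, SSU-G867, SSU-U1288 and SSU-U1804, and each was more methylated in the adult. Over all listed sites 29 passed, 28 of them higher in the adult, which is 25.9% of those tested. The 4 of 18 are thus a share near that of all sites. The test compared observed read ends with the expected number as an offset (edgeR quasi-likelihood, adjusted p under 0.05 over all listed sites). Its log2 change is the ratio of adult to E16.5 unprotected shares, and a negative value is a higher fraction in the adult. The median log2 change was -0.81 over the 18 sites and -0.87 over all listed sites, and 16 of the 18 and 95 of all were negative. Scaling the libraries by their total over the sites (TMM), in place of the neighbouring positions, moved the median of all sites to 0.17 and left 0 of the 18 and 1 of all sites past the threshold, that 1 lower in the adult. With the neighbouring positions as offset, 6 of the 18 and 44 of all sites had an unadjusted p under 0.05. The 4 calls are therefore given also relative to the median of all sites.

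SSU-U1804, in the long helix that carries the decoding centre, had the largest change. The fractions were 0.991, 0.993 and 0.987 in the adult brains and 0.930, 0.931 and 0.939 at E16.5. The groups did not overlap, and the gap between them was several times the range within either. The adult brains had 34, 18 and 25 read ends where 3983, 2514 and 1860 were expected. The E16.5 brains had 225, 103 and 268 where 3192, 1494 and 4386 were expected. The log2 change was -2.79 ± 0.32 (SE; edgeR, adjusted p = 0.00446) and -1.92 relative to the median of all sites. It was negative in each alternative and fell short of the threshold on the 3′ ends alone (adjusted p = 0.0552) and with TMM (0.105). In the WT means of the deposited list the fraction was 0.993 for adult and 0.945 for E16.5 brain.

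SSU-G867 lies in the central domain and faces Snord98, from an intron of Ccar1. Its fractions were 0.956, 0.968 and 0.962 in the adult brains. At E16.5 they were 0.851, 0.786 and 0.864. It had the widest gap between group means of the 18 sites, 0.962 ± 0.00604 against 0.834 ± 0.0421 (SD, n = 3), with no overlap. The log2 change was -2.12 ± 0.37 (SE; edgeR, adjusted p = 0.00890) and -1.26 relative to the median of all sites. In E16.5 brain 2 most read ends at the site were 5′ ends, 655 against 31 3′ ends, while E16.5 brain 1 had 40 and 127. The neighbouring positions had a like split, with 2953 5′ ends and 247 3′ ends expected in brain 2 and 495 and 625 in brain 1. Brain 2 had a fraction of 0.778 on the 5′ ends and 0.874 on the 3′ ends. The WT means of the deposited list were 0.941 in the adult and 0.847 at E16.5.

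SSU-U799, also in the central domain, faces Gm24067 and Gm23008, which RefSeq lists as SNORD105 and U105B and which lie in Ppan, a gene of ribosome assembly. The fractions were 0.975, 0.982 and 0.985 in the adult and 0.944, 0.950 and 0.947 at E16.5. The spread within each group was small, and the groups did not overlap. The log2 change was -1.44 ± 0.26 (SE; edgeR, adjusted p = 0.0105) and -0.57 relative to the median of all sites, and with TMM it turned to 0.06. It was the only one of the 18 sites to pass on the 3′ ends alone (adjusted p = 0.0233).

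SSU-U1288, in the head, faces Snord110. Its fractions were 0.982, 0.986 and 0.980 in the adult and 0.966, 0.936 and 0.905 at E16.5. The adult brains were close together and each was above each embryo. The log2 change was -1.90 ± 0.41 (SE; edgeR, adjusted p = 0.0169) and -1.03 relative to the median of all sites. The low value of E16.5 brain 3 came with 232 3′ ends beside 72 5′ ends, and on the 5′ ends alone that brain had 0.962.

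Without adult brain 2, SSU-U1804 alone of the 18 sites passed (1 of 18, and 10 of all listed sites). SSU-G867, SSU-U799 and SSU-U1288 then had adjusted p-values of 0.0525, 0.0543 and 0.0713, with changes of the same direction. Without any other single brain these 4 sites still passed.

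SSU-C797 and SSU-G1447 also had no overlap between the groups but did not pass the test. The 6 of 18 sites without overlap, each higher in the adult, stand beside 38.9% of all listed sites. SSU-C797, for which no guide was found, had 0.963, 0.978 and 0.975 in the adult brains. At E16.5 it had 0.950, 0.941 and 0.956 (log2 change -0.85 ± 0.29 (SE), edgeR adjusted p = 0.0765, turning to 0.41 with TMM). SSU-C797 and SSU-U799 lie within each other's neighbouring positions, and leaving listed sites out of the neighbours changed neither call. DESeq2 called SSU-C797 and SSU-G1447 as well.

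SSU-G1447 was the second least methylated of the 18 sites in each group. It faces Gm25970, listed by RefSeq as SNORD127, in Prpf39, a splicing factor gene. The fractions were 0.906, 0.923 and 0.862 in the adult and 0.787, 0.739 and 0.825 at E16.5. The log2 change was -1.08 ± 0.42 (SE; edgeR, adjusted p = 0.0979). On 5′ ends only, each embryo was again below each adult brain, at 0.847, 0.881 and 0.804 against 0.927, 0.957 and 0.936 (log2 change -1.37, edgeR adjusted p = 0.00328). The 3′ ends alone gave lower fractions, 0.826 ± 0.0486 in the adult and 0.624 ± 0.191 at E16.5 (SD, n = 3).

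The other 12 sites did not pass (edgeR adjusted p from 0.265 to 0.988). Among them SSU-U1326 and SSU-G1328, paired by the snoRNAs of Rpl13a, were close to fully methylated at both ages. SSU-U1326 had 0.988, 0.979 and 0.974 in the adult and 0.974, 0.975 and 0.976 at E16.5. SSU-G1328 had 0.989, 0.989 and 0.971 in the adult and 0.978, 0.965 and 0.971 at E16.5. At both, the groups overlapped. SSU-G1490 was as high, with means of 0.979 ± 0.00648 and 0.973 ± 0.00628 (SD, n = 3), and it is faced by Gm25855. SSU-G683, faced by the paired snoRNAs of Gnl3, had 0.948, 0.928 and 0.967 in the adult and 0.928, 0.960 and 0.965 at E16.5, and the groups overlapped.

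The wide spread at several of the remaining sites went with the base after the site. Followed by C were 5 of the 18 sites, SSU-A1031, SSU-C1272, SSU-A1383, SSU-U1442 and SSU-C1703, and at each of the 5, brain 1 had the lowest fraction of its group, in the adult and at E16.5. This grouping was chosen after the values were seen. Over all 21 listed sites followed by C, brain 1 was the lowest at 20 in the adult and at 16 at E16.5. With 5′ ends only, brain 1 was the lowest at 1 of the 5 in each group.

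SSU-A1383, in the head, is an example. The adult brains had 0.749, 0.990 and 0.983, and brain 1 stood apart. In adult brain 1 the site had 11 5′ ends and 1360 3′ ends, and in adult brain 2 it had 25 and 38. At E16.5 the fractions were 0.801, 0.984 and 0.942, with 19, 48 and 43 5′ ends and 792, 17 and 396 3′ ends. The 5′ ends by themselves gave 0.992, 0.992 and 0.993 in the adult and 0.983, 0.979 and 0.987 at E16.5.

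SSU-A1031 faces Snord59a and the Mir677 locus, both within Atp5b. Its fractions were 0.877, 0.986 and 0.990 in the adult and 0.738, 0.982 and 0.941 at E16.5. From 5′ ends only they were 0.994, 0.992 and 0.992 in the adult and 0.985, 0.980 and 0.981 at E16.5, with no overlap. SSU-U1442 faces Snord61, from Rbmx. It had 0.806, 0.986 and 0.992 in the adult and 0.797, 0.923 and 0.862 at E16.5. Its fractions on the 5′ ends were 0.995, 0.984 and 0.995 in the adult and 0.936, 0.956 and 0.953 at E16.5, again with each adult brain above each embryo. SSU-C1703, in the decoding centre and faced by Snord43 of the ribosomal protein gene Rpl3, had 0.914, 0.989 and 0.967 in the adult and 0.878, 0.978 and 0.973 at E16.5. It was thinly covered, with 392 to 2786 expected read ends.

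Followed by A were 3 of the 18 sites, SSU-A668, SSU-G1447 and SSU-A1678, and there E16.5 brain 2 was the lowest embryo at each of the 3. SSU-A668, faced by the snoRNAs that RefSeq lists as SNORD36 in Rpl7a, had 0.949, 0.895 and 0.906 in the adult and 0.962, 0.753 and 0.950 at E16.5. In E16.5 brain 2 it had 10 5′ ends and 312 3′ ends. SSU-A1678, faced by Snord82, had 0.966, 0.901 and 0.848 in the adult and 0.931, 0.768 and 0.953 at E16.5. Its 5′ ends were few, from 1 to 15 per brain, and gave 0.975, 0.992 and 0.995 in the adult and 0.927, 0.965 and 0.933 at E16.5. The spread between brains was smaller at sites followed by G or U than at those followed by A or C. The median SD over the 6 sites followed by G was 0.00664 for adult brains and 0.00698 for embryos, over the 4 followed by U 0.00761 and 0.0185, over the 3 followed by A 0.0317 and 0.101, and over the 5 followed by C 0.0816 and 0.0963.

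SSU-C1391, followed by U and faced by Gm24453 (SNORD28 in RefSeq), varied without this pattern. The fractions were 0.845, 0.915 and 0.956 in the adult and 0.780, 0.969 and 0.731 at E16.5. E16.5 brain 3 was low on both kinds of read end, at 0.619 on the 5′ ends and 0.744 on the 3′ ends. The groups overlapped.

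Counting 5′ ends only, 11 of the 18 sites passed between the KO groups (edgeR, adjusted p under 0.05), 10 of them higher in the adult, against 53.7% of all listed sites called higher in the adult. The 7 that joined the 4 were SSU-A668, SSU-A1031, SSU-A1383, SSU-U1442, SSU-G1447, SSU-G1490 and SSU-A1678. SSU-A668 was the exception in direction. On its 5′ ends the adult brains had 0.904, 0.887 and 0.872 and the embryos 0.950, 0.966 and 0.935 (log2 change 1.13 ± 0.35 (SE), edgeR adjusted p = 0.0168), while on all ends its change was -0.42 and did not pass. How far the kind of library end accounts for these differences was not tested.

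Between KO and WT the comparison rests on the means of the deposited list, which gives 1 SD per group and no single WT values. Over the 18 sites the size of the difference had a median of 0.0110 for the adult and 0.0170 for E16.5, beside 0.0107 and 0.0134 over all listed sites. A difference over 2 times the larger SD was seen at 2 of 18 sites in the adult, beside 16.7% of all sites, and at 2 of 18 at E16.5, beside 4.63%. With each KO brain scored as deposited the counts were 2 and 1. The criterion is a description, not a test.

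In the adult these were SSU-G683, where KO was 0.948 and WT 0.891, and SSU-G1490, where KO was 0.979 and WT 0.990. With the sample SDs of the KO brains, 0.0194 and 0.00648, the criterion held at SSU-G683 and was not met at SSU-G1490. The 3 largest listed adult differences, KO minus WT, were -0.0711 at SSU-A1678, 0.0571 at SSU-G683 and 0.0568 at SSU-C1391. At SSU-A1678 the KO mean was 0.905 with a listed SD of 0.0479 and the WT mean 0.976 with a listed SD of 0.00896. With the KO brains alone rescored on 5′ ends, their mean was 0.0111 above the same listed WT mean, for which no read ends were used here.

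At E16.5 they were SSU-A668, where KO was 0.959 and WT 0.914, and SSU-G1447, where KO was 0.783 and WT 0.858. With the sample SD of the KO brains, 0.0429, the criterion was not met at SSU-G1447. At SSU-A668 the larger listed SD was that of WT, 0.0201. The 3 largest listed differences were -0.0802 at SSU-U1442, -0.0790 at SSU-C1391 and -0.0748 at SSU-G1447. With the KO brains rescored on 5′ ends and the listed WT mean kept, the difference was 0.00767 at SSU-U1442, -0.0527 at SSU-C1391 and -0.0137 at SSU-G1447. The listed KO mean did not equal the mean of the brains' own fractions at SSU-A1383 in the adult and at SSU-A668, SSU-A1031, SSU-A1383 and SSU-G1447 at E16.5. At the first 4 of these it equalled the mean with 1 brain scored on its 5′ ends alone: brain 1, or brain 2 at SSU-A668. With each brain scored as deposited, KO minus WT was -0.0660 in place of 0.0147 at SSU-A1383 in the adult, and -0.0258 in place of 0.0452 at SSU-A668 at E16.5, where the criterion was then not met. At E16.5 it was -0.0872 in place of -0.00485 at SSU-A1031, which made that site's difference the largest of the 18 at this age. At SSU-A1383 it was -0.0673 in place of -0.00652. Rescored on 5′ ends with the listed WT mean kept, these E16.5 differences were 0.0362 at SSU-A668, 0.00797 at SSU-A1031 and 0.00660 at SSU-A1383. Whether the listed WT means also hold brains scored on 5′ ends alone could not be checked from means and SDs.

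For the 4 sites that passed between the KO groups, KO minus WT in the adult was -0.00292 at SSU-U1804, 0.0206 at SSU-G867, -0.00358 at SSU-U799 and 0.0202 at SSU-U1288. At E16.5 it was -0.0121, -0.0135, -0.00758 and 0.00424 at the same sites. The WT means were higher in the adult than at E16.5 at each of these 4 sites, by 0.0480, 0.0941, 0.0297 and 0.0312, and at 12 of the 18 sites, beside 87 of all listed sites. The WT means were not tested.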

How the data were processed

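Whole-brain RNA of 6 mice was profiled by RiboMeth-seq. The authors trimmed reads with cutadapt 2.0 and mapped them with Bowtie2 2.3.4.1 (per the labels' processing notes) to curated mouse rRNA sequences, and deposited counts of 5′ and 3′ read ends per position and a methylated fraction per site and brain. The deposited site list gives each score as a mean with an SD over brains. The fraction was recomputed from the counts with weights of 1.0 falling to 0.5 over 6 positions on either side, and it equalled the deposited value in 647 of 648 values (tolerance 1e-05), the exception being SSU-G1447 of E16.5 brain 3.

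KO groups were compared on observed counts with log expected counts as offset (edgeR 4.0.16, quasi-likelihood test, R 4.3.3), over all listed sites with Benjamini-Hochberg adjustment. The test was also run on simulated counts with known changes, drawn for each site from the shares and dispersions of these data. There it called 52% of log2 changes of 2 and 8.25% of log2 changes of 1, with 0.4 false calls per run. The simulation held no change shared by most sites and no effect shared by sites of one brain. Its rate of false calls may therefore differ from that in these data. A site that did not pass may therefore still differ between the groups. DESeq2 1.42.0 and limma 3.58.1, the latter on log2(1 - fraction + 0.01), were alternatives, as were other neighbours, single kinds of read end, library sizes, an expected minimum of 1000, a replicate block and left-out brains. Each of the 18 sites is named: values of each brain are given for sites under 0.90 in a KO group, past the threshold, or among the 3 largest KO minus WT differences at an age, and for some others chosen after their values were seen. Guides were sought in GENCODE transcripts and named from GENCODE and RefSeq. Members and lists were chosen with earlier results of these data known. Brains are the replicates, and nothing here corrects for PCR copies of one fragment.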

Additional observations from a re-analysis of the deposited data

Results flagged for a closer look

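At 2 of the 18 sites the KO brains of the ages lay on opposite sides of their WT means, as at 14 of all listed sites. At SSU-C797 each adult KO brain was below the adult WT mean (mean difference -0.00717) and each E16.5 KO brain above the E16.5 WT mean (0.0234). At SSU-U1326 the mean differences were -0.00843 and 0.0243. The listed E16.5 WT SDs at SSU-C797 and SSU-U1326, 0.0317 and 0.0282, were larger than the E16.5 differences. The listed adult WT SDs, 0.00246 and 0.00248, were smaller than the adult differences. The opposite direction at the ages was not tested. Groups of 3 brains were too small for a check of outlying samples.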

How the results depend on the processing

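Of the 18 sites, 4 passed between the KO groups, and 29 of all listed sites. The counts were 11 and 63 with 5′ ends only, 1 and 7 with 3′ ends only (107 sites could be fitted), and 0 and 1 with TMM library sizes, which by construction use the read ends of the sites themselves. DESeq2 called 6 and 47, with no adjusted p at 2 listed sites, and limma 5 and 32. Leaving out 1 brain gave 1 to 6 and 10 to 30, lowest without adult brain 2. Leaving out brain 1 of both groups, chosen after seeing the data, gave 5 and 36. With TMM the log2 change turned to 0.0556 at SSU-U799 and 0.41 at SSU-C797; the cause was not tested.

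The block on replicate number left 4 of the 18 sites and 31 of all listed sites past the threshold, the same 4. Deviations from the group means correlated at 0.67, 0.45 and -0.18 between brains 1, 2 and 3 of both groups over all listed sites, and adult brain 3 correlated best with E16.5 brain 2 (0.64), so the numbers were not taken as pairs.

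The count at 0.75 or more was 17 in each group in each alternative except at E16.5 with 3′ ends only, which gave 15, and at a threshold of 0.90, which gave 16 and 10. With KO means recomputed from the brains, KO minus WT was over 2 times the larger SD at 2 adult sites as before and at 1 in place of 2 at E16.5. With sample SDs of the KO brains this was not met at SSU-G1490 in the adult or at SSU-G1447 at E16.5. The median fraction, 0.954 and 0.921, was 0.977 and 0.949 on the 5′ ends, 0.939 and 0.880 on the 3′ ends, and ranged from 0.945 to 0.977 and from 0.910 to 0.942 with 1 brain left out. Expected read ends under 1000 in some brain limit 4 of the 18 sites; the other 14 gave the same 4 calls.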
